A study of Mus musculus with 16 samples.

Results

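The 6 genes described here encode the cytosolic route from citrate to long-chain fatty acids in mouse liver: Slc25a1, Acly, Acss2, Acaca, Acacb and Fasn. Acetylation of histone H3 at lysine 27 (H3K27ac), a mark of active promoters and enhancers, had been measured at them by chromatin immunoprecipitation and sequencing (ChIP-seq). A region of the deposited count table was assigned to a gene when its midpoint lay inside that gene, or when it lay in no gene and the gene was the nearest protein-coding one within 50 kb. This gave the 6 genes 60 of the 52645 regions, and 6 of the 11457 genes that held any region were members. The livers came from C57BL/6J mice of both genotypes, 6 weeks old when the diets began, and were collected on day 21. The 4 groups of 3 libraries were NCoR1 KO mice on PTU/LID (a low-iodine diet with 0.15% propylthiouracil, which blocks thyroid hormone synthesis, for 3 weeks), WT mice on PTU/LID, NCoR1 KO mice on standard chow, and WT mice on chow. NCoR1 is a corepressor that brings histone deacetylase activity to nuclear receptors, thyroid hormone receptors among them. The series sets livers with and without it side by side under both diets, in animals it calls hypothyroid on PTU/LID and euthyroid on chow. The labels do not say which part of Ncor1 was deleted or in which cells, nor whether each library number is a separate animal, so the p-values below measure the spread between libraries.

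Citrate leaves the mitochondrion through Slc25a1 and is split by Acly into oxaloacetate and the acetyl-CoA from which fatty acids are built, while Acss2 makes acetyl-CoA from acetate. Acetyl-CoA carboxylase then forms malonyl-CoA: the isoform encoded by Acaca works in the cytosol, and that of Acacb sits on the outer mitochondrial membrane, where its malonyl-CoA restrains the carnitine palmitoyltransferase that admits fatty acids for oxidation. Fasn joins acetyl-CoA and malonyl-CoA into palmitate. In liver these genes are known targets of the lipogenic factors SREBP1c and ChREBP, and several also respond to thyroid hormone.

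Sequencing depth, as counts inside regions, was between 3719180 and 7416187 in KO PTU/LID libraries, 3095704 and 4729424 in WT PTU/LID libraries, 5628758 and 6707960 in KO chow libraries, and 2965505 and 5831372 in WT chow libraries. Mitochondrial regions held 2% of counts or more in 7 libraries (1 KO and 1 WT on PTU/LID, 3 KO and 2 WT on chow) and less in the other 5. The second KO chow library stood apart with 17.2%, and its counts differed from those of the other KO chow libraries by a chi-square per degree of freedom of 16.5 and 22.0, against 3.35 between those other libraries. H3K27ac over the 6 regions of Ncor1 itself averaged 54.1 ± 5.81 CPM (counts scaled by the library total) in KO PTU/LID livers and 55.3 ± 7.19 in WT PTU/LID livers, and 53.9 ± 9.46 in KO chow livers and 55.0 ± 9.34 in WT chow livers (SD, n = 3 each), which does not check the deletion, since the mark need not follow a deleted exon. All 8 hepatocyte markers had regions, against 4 of 8 Kupffer cell and macrophage markers and 2 of 5 cholangiocyte markers. The Kupffer cell genes Clec4f, Adgre1, Vsig4 and Cd5l and the cholangiocyte genes Krt19, Krt7 and Epcam had none. In whole liver a larger share of one cell type and more acetylation per cell cannot be told apart.

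Windows around RefSeq starts are shown first because the regions called at Fasn, Acss2 and Acly lay at or just before the annotated gene start. RefSeq gives 1 window of 300 bases around a start for each of the 6 genes (GRCm38.p6, the assembly behind mm10). The start used for the window was the annotated gene start for Acly, Acss2 and Slc25a1, and lay 0.62 kb inside the gene for Fasn. On the minus strand, the Fasn window at chr11:120824498-120824797 had 299 of its bases inside acetylated regions, the Acly window at chr11:100527951-100528250 had 125, and the Slc25a1 window at chr16:17928170-17928469 had 300. The Acss2 window, on the plus strand at chr2:155517793-155518092, had 80 bases inside a region. The 4 windows read, 5′ to 3′, with every match to a searched motif on either strand in capitals:
Fasn: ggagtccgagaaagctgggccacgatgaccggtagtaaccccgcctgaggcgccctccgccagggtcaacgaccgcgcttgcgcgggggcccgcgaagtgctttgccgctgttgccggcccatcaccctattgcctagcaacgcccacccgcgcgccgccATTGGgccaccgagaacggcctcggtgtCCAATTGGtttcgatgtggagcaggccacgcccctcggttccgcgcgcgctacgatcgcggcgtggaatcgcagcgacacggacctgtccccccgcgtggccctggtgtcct
Acly: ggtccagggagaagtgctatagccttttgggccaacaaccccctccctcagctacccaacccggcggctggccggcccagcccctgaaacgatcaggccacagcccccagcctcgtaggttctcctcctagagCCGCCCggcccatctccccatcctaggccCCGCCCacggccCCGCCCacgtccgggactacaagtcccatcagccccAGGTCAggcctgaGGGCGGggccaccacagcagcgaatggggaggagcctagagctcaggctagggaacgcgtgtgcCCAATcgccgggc
Acss2: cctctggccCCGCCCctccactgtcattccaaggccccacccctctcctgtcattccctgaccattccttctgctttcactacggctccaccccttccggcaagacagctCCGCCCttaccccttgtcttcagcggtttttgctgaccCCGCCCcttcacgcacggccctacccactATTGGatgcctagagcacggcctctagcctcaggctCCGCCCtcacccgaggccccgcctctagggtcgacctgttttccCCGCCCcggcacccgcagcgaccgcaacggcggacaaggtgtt
Slc25a1: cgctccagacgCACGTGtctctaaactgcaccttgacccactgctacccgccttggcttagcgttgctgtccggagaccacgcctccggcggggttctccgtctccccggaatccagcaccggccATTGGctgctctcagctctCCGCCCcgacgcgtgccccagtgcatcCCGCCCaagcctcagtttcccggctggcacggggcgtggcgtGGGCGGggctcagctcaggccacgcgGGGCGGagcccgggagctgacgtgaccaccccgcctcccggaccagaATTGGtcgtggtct
The motifs were the CCAAT box (CCAAT, bound by NF-Y), the GC box (GGGCGG, bound by Sp1 and its relatives), the E-box (CACGTG, bound by USF and ChREBP among others), the core of a sterol regulatory element (TCACNCCAC), the nuclear receptor half-site (AGGTCA) and a direct repeat of that half-site with 4 bases between, the arrangement best known for thyroid hormone receptors. Fasn held 3 CCAAT boxes, 2 of which share letters, and no other match. Acly held 4 GC boxes, 1 CCAAT box and 1 half-site, Acss2 held 5 GC boxes and 1 CCAAT box, and Slc25a1 held 4 GC boxes, 2 CCAAT boxes and the single E-box among the 6 windows. Of all 32851 windows in the table, 37.4% held a CCAAT box, 35.7% a GC box, 16.3% a half-site and 7.15% an E-box. The sterol element core (1.24% of windows) and the spaced repeat (0.0152%) matched none of the 6. GC content was 69.3% for Fasn and Slc25a1, 68.7% for Acly and 65.0% for Acss2, against a median of 52.7% over all windows. The Acaca window lay wholly inside an acetylated region 66.1 kb within the annotated gene, and the Acacb window overlapped no region.

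On PTU/LID, H3K27ac was higher in KO than in WT liver at 5 of the 6 genes: Fasn, Acaca, Acacb, Acly and Acss2. The rise was largest at Acacb, 1.81-fold, and between 1.32-fold and 1.42-fold at the other 4. Slc25a1, the citrate carrier, did not pass the test. A gene was called at an adjusted p below 0.05 in edgeR's quasi-likelihood test with Benjamini-Hochberg adjustment over all 11445 genes tested. At that threshold 6.28% of all genes were called in this comparison, 559 higher and 160 lower in KO. The median log2 fold change was 0.44 over the 6 genes and -0.03 over all genes. Gene-level CPM below are counts summed over a gene's regions and scaled by the TMM-adjusted total over gene-assigned regions. Within a group, values are given in the order of the library numbers in the labels.

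**Figure D1:**
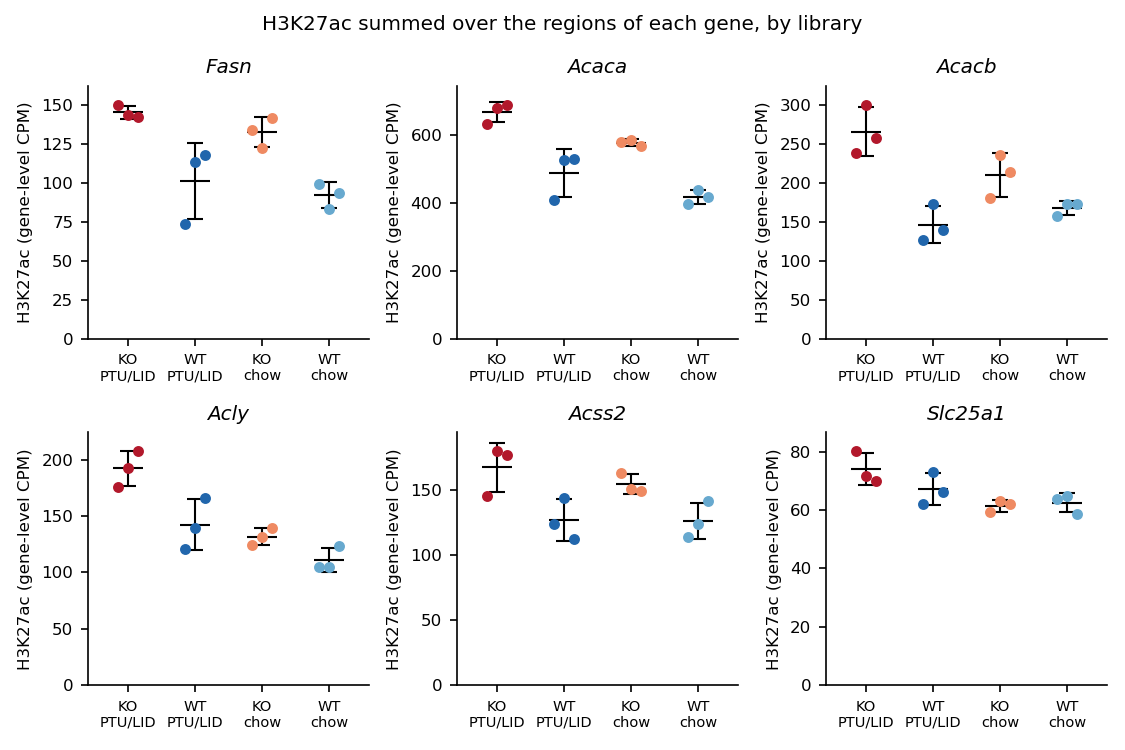
Gene-level H3K27ac (CPM, axis from 0) at the 6 genes in each of the 12 libraries, with the group mean and SD (n = 3) in black. The KO points lie above the WT points of the same diet in every panel but that of Slc25a1 (5 of 6 genes on each diet; 10.6% of all genes on PTU/LID and 14.7% on chow).

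Acly, the ATP-citrate lyase, had 176, 193 and 208 CPM in KO PTU/LID livers, against 121, 140 and 166 CPM in WT PTU/LID livers. The lowest KO library lay above the highest WT library, and the log2 fold change was 0.43 ± 0.12 (SE; edgeR, adjusted p = 0.032). Acss2, the cytosolic acetyl-CoA synthetase, had 146.01, 180 and 177 CPM in KO PTU/LID livers, against 124, 144 and 113 CPM in WT PTU/LID livers. The lowest KO library lay just above the highest WT library, and the log2 fold change was 0.41 ± 0.12 (edgeR, adjusted p = 0.0463). Slc25a1 had 80.2, 71.8 and 69.9 CPM in KO PTU/LID livers and 62.2, 73.0 and 66.3 CPM in WT PTU/LID livers. Here the groups overlapped, and the 95% interval of the log2 fold change ran from -0.11 to 0.38 (edgeR, adjusted p = 0.594).

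Acaca, the cytosolic carboxylase, had 634, 678 and 689 CPM in KO PTU/LID livers, against 407, 525 and 530 CPM in WT PTU/LID livers. Its log2 fold change was 0.45 ± 0.10 (edgeR, adjusted p = 0.0095). Acacb, the carboxylase of the mitochondrial surface, had 239.001, 301 and 258 CPM in KO PTU/LID livers, against 127, 173 and 140 CPM in WT PTU/LID livers. All 3 KO libraries lay well above all 3 WT libraries, and the log2 fold change was 0.86 ± 0.13 (edgeR, adjusted p = 0.000203). Fasn, the fatty acid synthase, had 150, 144 and 142 CPM in KO PTU/LID livers, against 73.3, 113 and 117 CPM in WT PTU/LID livers. The KO libraries lay close together, the WT libraries were spread by a low value in the first of them, and the log2 fold change was 0.51 ± 0.14 (edgeR, adjusted p = 0.0265).

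Only the Acacb and Acaca calls on PTU/LID were kept whichever library of that diet was left out. Fasn, Acly and Acss2 all missed the threshold without the second or the third KO library or the first WT library, so that 2 of 6 genes were called in each of those fits. Over all genes, calls fell from 719 to 363 and 383 without those KO libraries, and rose to 781 without that WT library. Acly also missed the threshold without the second WT library and Acss2 without the third, where 586 and 414 of all genes were called. Without the first WT library the log2 fold change of Fasn was 0.35 (edgeR, adjusted p = 0.0771). Hepatocyte markers moved with these groups: summed over the 8 genes they had 4259 to 4511 CPM in KO PTU/LID livers and 2786 to 4174 CPM in WT PTU/LID livers, with none of the 8 called. Sinusoidal endothelial markers, 7 of 8 with regions, summed to 629 to 672 CPM in KO PTU/LID livers and 705 to 795 CPM in WT PTU/LID livers. The first WT PTU/LID library was also the shallowest of its diet, with 3095704 counts, and its mitochondrial share of 3.26% was the highest of its diet. The part of cell composition and depth in the result was not tested. Within the 2 KO and 2 WT PTU/LID libraries of lower mitochondrial share, the log2 fold changes were 0.32 for Fasn, 0.38 for Acaca, 0.84 for Acacb, 0.40 for Acly and 0.49 for Acss2, and 4 of these 5 were called, Fasn being the exception. That fit called 1306 of all 11439 genes tested in it, against 719 of 11445 with all 12 libraries. Fewer of the 6 were called with the 6 PTU/LID libraries fitted alone (1), under cyclic loess scaling (2) and with totals over all regions (2). Over all genes, 369 were called with the PTU/LID libraries alone and 590 under cyclic loess scaling.

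**Figure D2:**
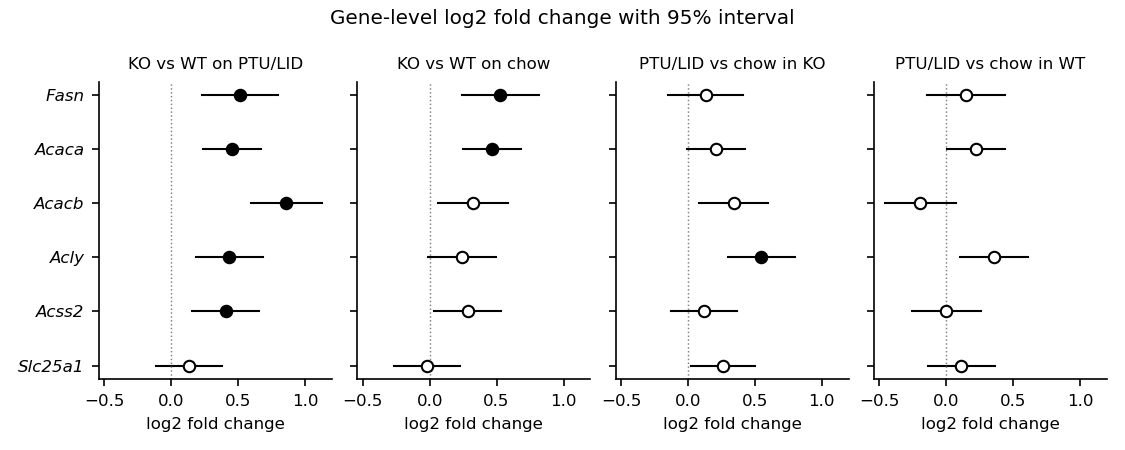
Gene-level log2 fold change with its 95% interval for the 6 genes (rows) in 4 comparisons (panels), filled where called at an adjusted p below 0.05. Filled points stand at 5 genes for KO against WT on PTU/LID, at Fasn and Acaca on chow, at Acly for the diet in KO, and at none for the diet in WT.

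On chow, H3K27ac was higher in KO than in WT liver at Fasn and Acaca, 2 of the 6 genes, each by about the same amount as on PTU/LID. In this comparison 3.97% of all genes were called, 278 higher and 176 lower. The median log2 fold change was 0.30 over the 6 genes and -0.005 over all genes. Fasn had 134, 122.1 and 142 CPM in KO chow livers, against 99.3, 83.2 and 93.4 CPM in WT chow livers, a log2 fold change of 0.53 ± 0.14 (edgeR, adjusted p = 0.0327). Acaca had 579, 586 and 567 CPM in KO chow livers, against 396, 439 and 418 CPM in WT chow livers, a log2 fold change of 0.47 ± 0.11 (edgeR, adjusted p = 0.0138). The KO values of both genes lay above all WT values, yet leaving out any 1 of the 6 chow libraries took the Fasn call away (log2 fold change 0.46 to 0.58; edgeR, adjusted p between 0.0529 and 0.155), and the Acaca call was kept in 1 of those 6 fits. Over all genes, those fits called 110 to 253, against 454 with no library left out.

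Acacb had 180, 236 and 213 CPM in KO chow livers and 157, 173 and 173 CPM in WT chow livers. Its groups did not overlap, but the log2 fold change of 0.32 ± 0.13 missed the threshold (edgeR, adjusted p = 0.15). Acly had 124, 131 and 140 CPM in KO chow livers and 105, 105 and 124 CPM in WT chow livers, so that the lowest KO library lay just above the highest WT library (log2 fold change 0.24, 95% interval -0.01 to 0.49; edgeR, adjusted p = 0.281). Acss2 had 163, 151 and 149 CPM in KO chow livers and 114, 124 and 142 CPM in WT chow livers (0.28, interval 0.03 to 0.54; edgeR, adjusted p = 0.189). Slc25a1 had 59.3, 63.3 and 62.1 CPM in KO chow livers and 63.7, 65.0 and 58.8 CPM in WT chow livers, nearly the same level (-0.02, interval -0.27 to 0.23). Every KO library stood above every WT library at 5 of the 6 genes on each diet, as it did at 10.6% of all genes on PTU/LID and 14.7% on chow, and the threshold was passed at 5 genes on PTU/LID and 2 on chow. With a term for the higher or lower mitochondrial set in the fit, 5 of the 6 genes were called on chow, all but Slc25a1. That fit called 1541 of all 11445 genes on chow, against 454 without the term. Under cyclic loess scaling 0 of the 6 were called, and 403 of all genes. Without the second KO chow library, the one with 17.2% of counts in mitochondrial regions, 0 were called, with log2 fold changes of 0.57 for Fasn and 0.45 for Acaca. Markers of other cells also differed here. The endothelial sum was 652 to 675 CPM in KO chow livers and 820 to 861 CPM in WT chow livers. The Kupffer cell and macrophage sum, from 4 of 8 markers, was 35.3 to 40.3 CPM in KO and 51.3 to 70.5 CPM in WT chow livers. The stellate cell sum, from 3 of 7 markers, was 26.5 to 37.5 CPM in KO and 43.4 to 56.3 CPM in WT chow livers, with Hand2 called lower. Adipocyte markers went the other way (675 to 760 CPM in KO and 581 to 644 CPM in WT chow livers). So did lymphocyte markers (105 to 143 CPM in KO and 98.6 to 102 CPM in WT chow livers). Hepatocyte sums overlapped on chow, at 3227 to 3588 CPM in KO and 2932 to 3812 CPM in WT livers. The part of these markers in the result was not tested.

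Within the KO genotype the diet raised Acly, and no other member gene passed the test. Acly averaged 193 ± 15.7 CPM in KO PTU/LID livers and 132 ± 7.65 CPM in KO chow livers (SD, n = 3 each), 1.46-fold higher on PTU/LID (log2 fold change 0.55 ± 0.12; edgeR, adjusted p = 0.00469). It was 1 of 6 members in a comparison that called 7.44% of all genes. The call held without any 1 of the 6 KO libraries (0.49 to 0.61). Hepatocyte markers moved with Acly, summing to 4259 to 4511 CPM in KO PTU/LID livers and 3227 to 3588 CPM in KO chow livers, with 1 of the 8 called (Ttr, higher). Lymphocyte markers, 2 of 6 with regions, went the other way (73.9 to 75.7 CPM in KO PTU/LID and 105 to 143 CPM in KO chow livers), with Cd4 called lower. Endothelial sums overlapped (629 to 672 CPM in KO PTU/LID and 652 to 675 CPM in KO chow livers), with Tek called lower. The part of these markers in the result was not tested. Acacb was next, with a log2 fold change of 0.34 ± 0.13 and groups that did not overlap (edgeR, adjusted p = 0.106). Its call was gained without the first KO PTU/LID library (edgeR, adjusted p = 0.0443). The other 4 had log2 fold changes between 0.12 and 0.26.

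In WT liver the diet moved none of the 6 genes past the threshold, while 7.70% of all genes were called. At an unadjusted p below 0.05 there were 2, Acaca and Acly, and DESeq2's Wald test also called 0. Acly averaged 142 ± 22.7 CPM in WT PTU/LID livers and 111 ± 10.7 CPM in WT chow livers, with overlapping libraries (log2 fold change 0.35 ± 0.12; edgeR, adjusted p = 0.0796). Acaca averaged 488 ± 69.6 CPM in WT PTU/LID livers and 418 ± 21.3 CPM in WT chow livers (0.22 ± 0.11; edgeR, adjusted p = 0.194). The first WT PTU/LID library was the lowest of its group for Fasn, Acaca, Acacb, Acly and Slc25a1, and without it Acaca and Acly were both called (edgeR, adjusted p = 0.0343 and 0.0211). Acacb was the single gene with a lower mean on the diet, at 147 ± 23.98 CPM in WT PTU/LID livers and 168 ± 8.98 CPM in WT chow livers (-0.19, interval -0.46 to 0.07; edgeR, adjusted p = 0.391).

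The difference of the diet effect between genotypes, tested as an interaction, passed at none of the 6 genes, with 0.402% of all genes called. There was 1 member with an unadjusted p below 0.05, and DESeq2 called 0. This was Acacb, whose diet effect was 0.53 ± 0.18 higher in KO than in WT on the log2 scale (unadjusted p = 0.00683; edgeR, adjusted p = 0.277). For Fasn and Acaca the interaction was close to 0, at -0.02 (interval -0.42 to 0.39) and -0.02 (interval -0.32 to 0.29).

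Averaged over both diets, KO liver had more H3K27ac than WT liver at the same 5 genes, where 11.6% of all genes were called. The log2 fold changes were 0.59 ± 0.09 for Acacb, 0.52 ± 0.10 for Fasn, 0.46 ± 0.07 for Acaca, 0.34 ± 0.09 for Acss2 and 0.34 ± 0.09 for Acly, with adjusted p-values between 0.000134 and 0.012 in edgeR. These 5 calls were kept without any 1 of the 12 libraries. Slc25a1 had 0.06 (interval -0.12 to 0.23; edgeR, adjusted p = 0.711). Averaged over genotypes, the diet raised Acly by 0.45 ± 0.09 (edgeR, adjusted p = 0.000784) and Acaca by 0.22 ± 0.07 (edgeR, adjusted p = 0.0472), 2 of 6 against 16.0% of all genes. The Acaca call was kept in 2 of 12 fits that left out 1 library.

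Ordered by group mean, Fasn, Acaca and Acss2 had the same sequence: KO on PTU/LID, KO on chow, WT on PTU/LID, WT on chow. No neighbouring pair in that sequence differed past the threshold. Acacb kept the KO groups on top, with 266 ± 31.6 CPM in KO PTU/LID, 210 ± 28.3 in KO chow, 168 ± 8.98 in WT chow and 147 ± 23.98 in WT PTU/LID livers. Acly had the order KO PTU/LID, WT PTU/LID, KO chow and WT chow, with both PTU/LID means above both chow means. Its WT PTU/LID and KO chow means, 142 and 132 CPM, did not differ (edgeR, adjusted p = 0.654). Its top step, KO against WT on PTU/LID, was the single neighbouring pair among the 6 genes that differed. Slc25a1 also had both PTU/LID means on top, at 74.0 CPM in KO and 67.2 CPM in WT livers. Its chow means were 62.5 CPM in WT and 61.6 CPM in KO livers. Per kb of region, the 6 genes were close in level, between 22.9 CPM per kb for Acss2 and 29.5 CPM per kb for Fasn over all libraries. In KO PTU/LID livers Fasn had the highest mean, 36.4 ± 1.05 CPM per kb, and Acss2 the lowest, 26.7 ± 3.02, whereas in WT chow livers Slc25a1 was highest, with 25.7 ± 1.35 CPM per kb, and Acly lowest, with 19.8 ± 1.90. As a share of gene-assigned counts, the 6 genes together took 0.144% to 0.146% in KO PTU/LID libraries, 0.0975% to 0.117% in WT PTU/LID libraries, 0.120% to 0.125% in KO chow libraries and 0.0990% to 0.104% in WT chow libraries.

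Region by region, KO exceeded WT at 44 of 60 regions on PTU/LID and 50 of 60 on chow, where 48.4% and 49.5% of all regions did. Of the 60, 24 were of Acaca and 12 of Acacb, and regions of 1 gene are not independent. The regions that passed the test were a minority. All 60 regions passed the filter on low counts, as did 52606 of the table's 52645. On PTU/LID 12 of the 60 were called, all higher in KO, where 3.86% of all regions were called. On chow 6 of 60 were called, all higher in KO, where 2.43% of all regions were called. For the diet, 1 region was called in KO (6.21% of all regions) and 2 in WT (3.70%), and 6 when averaged over genotypes (11.3%). Averaged over diets 17 of 60 were higher in KO (8.04%), and the interaction called 0 of 60 (0.230%), with 7 at an unadjusted p below 0.05 and 1 called by DESeq2. In all, 19 of the 60 regions were called in at least 1 of the 7 comparisons, as were 19.4% of all regions: 8 of 24 at Acaca, 7 of 12 at Acacb, 2 of 7 at Acss2, 1 of 5 at Fasn, 1 of 9 at Acly and 0 of 3 at Slc25a1. The called regions had a median of 27.1 region CPM (scaled by the TMM-adjusted total over all regions; range 3.61 to 78.1), against 6.91 for the 41 not called (2.63 to 53.7). The weakest of those not called had 4 counts in a library, a depth at which a difference may not be detectable. Leaving out 1 library at a time, 6 to 13 of the 60 regions were called on PTU/LID and 0 to 3 on chow, and none of the 6 chow calls was kept in all 6 of those fits. On PTU/LID 3 of the 12 calls were kept in all 6, the Acacb region 10.1 kb inside the gene, the Fasn start region and the Acaca region 43.7 kb inside. The annotation used gives gene spans but no exons, so positions are given as distances from the annotated start.

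The region that differed most lay inside Acacb at chr5:114155408-114157466, its midpoint 10.1 kb downstream of the annotated start. It had 53.4, 61.6 and 57.0 CPM in KO PTU/LID livers, against 13.4, 23.3 and 18.1 CPM in WT PTU/LID livers. The lowest of these KO values lay above every WT value on either diet, and the log2 fold change of 1.64 ± 0.20 is a 3.11-fold difference (edgeR, adjusted p = 1.14e-06). On chow the same region had 30.3, 50.4 and 43.1 CPM in KO livers and 30.7, 27.6 and 30.6 CPM in WT livers, and these groups overlapped (0.48 ± 0.19; edgeR, adjusted p = 0.175). The diet lowered it in WT liver by a log2 fold change of -0.68 ± 0.20 (edgeR, adjusted p = 0.0495), a call kept in 1 of the 6 fits that left out a WT library. In KO liver its diet effect was 0.48 ± 0.18 (edgeR, adjusted p = 0.121). That difference between genotypes, 1.16 ± 0.27 on the log2 scale, lay just outside the threshold (edgeR, adjusted p = 0.0524).

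**Figure D3:**
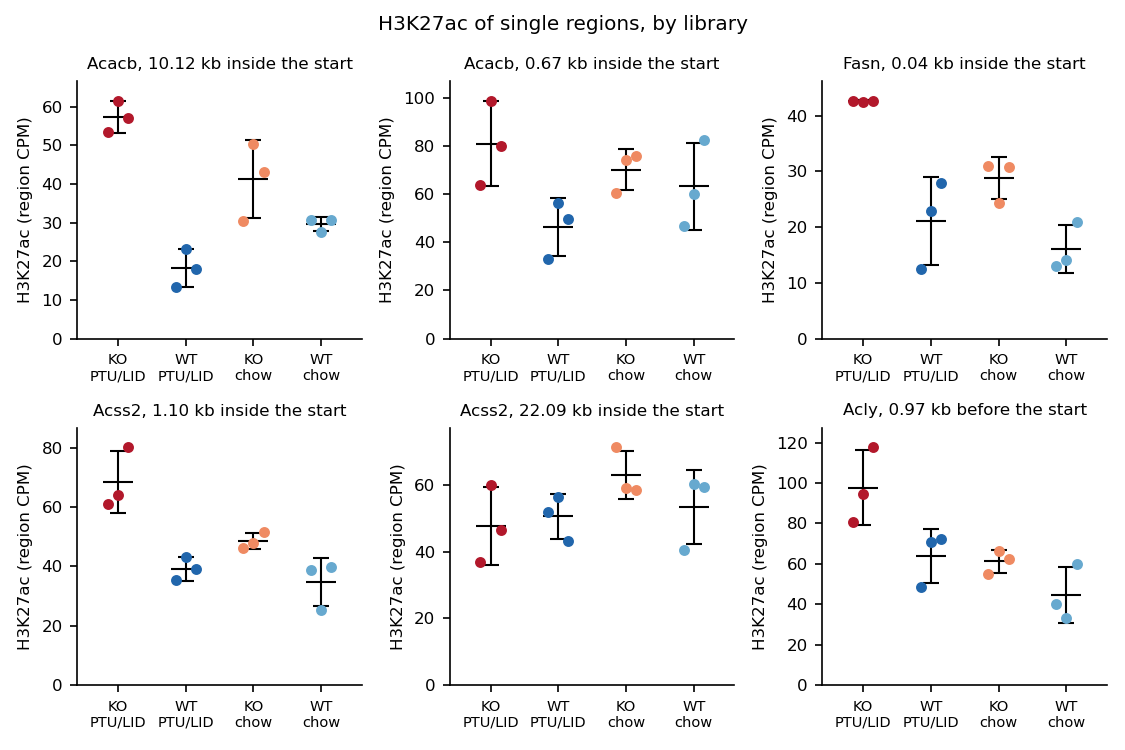
H3K27ac (region CPM, axis from 0) of 6 single regions in each of the 12 libraries, with group mean and SD (n = 3) in black. The Acacb region 10.12 kb inside the gene has its 3 KO PTU/LID values between 53.4 and 61.6 and its 3 WT PTU/LID values between 13.4 and 23.3, while the Acss2 region 22.09 kb inside shows overlapping groups.

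At the start of Acacb, chr5:114146210-114147772 held 37.3% of the gene's counts. It had 63.7, 98.96 and 80.2 CPM in KO PTU/LID livers, against 33.2, 56.4 and 49.7 CPM in WT PTU/LID livers (0.80 ± 0.20; edgeR, adjusted p = 0.0158), and on chow its groups overlapped, at 60.4, 74.2 and 76.0 CPM in KO livers and 46.9, 60.2 and 82.7 CPM in WT livers. The 3 weaker regions between the start and 14.6 kb were also higher in KO on PTU/LID. They averaged 5.01 CPM in KO and 1.72 in WT (chr5:114151830-114152166), 6.65 in KO and 2.496 in WT (chr5:114154967-114155286), and 15.6 in KO and 7.32 in WT (chr5:114160592-114161328). Their log2 fold changes were 1.55 ± 0.38, 1.38 ± 0.34 and 1.07 ± 0.25. Farther in, at 33.8 kb, chr5:114179693-114180550 had another order of groups. It had 20.2, 24.4 and 21.1 CPM in KO PTU/LID, 20.3, 25.4 and 17.0 CPM in WT PTU/LID, 16.5, 23.8 and 17.7 CPM in KO chow, and 7.28, 15.5 and 9.26 CPM in WT chow livers. WT chow livers were the low group, with log2 fold changes of 0.86 ± 0.24 for KO against WT on chow and 0.98 ± 0.24 for PTU/LID against chow in WT (edgeR, adjusted p = 0.0434 and 0.0164). Leaving out 1 library, the first was kept in 1 of 6 fits and the second in 3 of 6. A neighbour at 35.7 kb, chr5:114181707-114182243, was called in both averaged comparisons (0.65 ± 0.19 for KO and 0.61 ± 0.19 for the diet).

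Acaca carried its H3K27ac between 12.6 and 224 kb inside the gene, and none of its 24 regions lay within 2.5 kb of the annotated start. The 8 called regions lay between 39.0 and 69.6 kb. The strongest, chr11:84179856-84181913 at 51.3 kb, had 111, 102 and 113 CPM in KO PTU/LID livers, against 44.8, 77.3 and 92.0 CPM in WT PTU/LID livers (0.60 ± 0.18; edgeR, adjusted p = 0.0543). On chow it had 90.2, 86.2 and 77.0 CPM in KO livers, against 40.9, 50.8 and 52.9 CPM in WT livers (0.80 ± 0.19; edgeR, adjusted p = 0.0128). Those groups did not overlap on either diet, and the diet averaged over genotypes raised it by 0.47 ± 0.13. At chr11:84198301-84200109, 69.6 kb inside, both genotype comparisons passed, with 72.6, 67.2 and 80.6 CPM in KO PTU/LID livers against 40.3, 59.4 and 45.6 CPM in WT PTU/LID livers, and 57.0, 69.0 and 49.4 CPM in KO chow livers against 32.9, 37.8 and 42.0 CPM in WT chow livers (log2 fold changes of 0.60 ± 0.17 and 0.63 ± 0.18). The weak region chr11:84173020-84173665 differed most within Acaca on PTU/LID, with 12.0, 17.1 and 10.5 CPM in KO livers against 3.88, 5.81 and 5.13 CPM in WT livers (1.40 ± 0.28; edgeR, adjusted p = 0.0018). On chow that place was taken by chr11:84169347-84169691, which averaged 8.19 CPM in KO livers and 3.33 CPM in WT livers (1.32 ± 0.34; edgeR, adjusted p = 0.0275). The remaining 4 were chr11:84194876-84196650 and chr11:84196907-84198148, called on PTU/LID (0.64 ± 0.18 and 0.62 ± 0.18), chr11:84191996-84192829, called on chow (0.90 ± 0.26), and chr11:84168143-84169070, called over both diets (0.46 ± 0.14). Of the 24 regions, 2 also lie inside Gm11437, and neither of those was called.

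**Figure D4:**
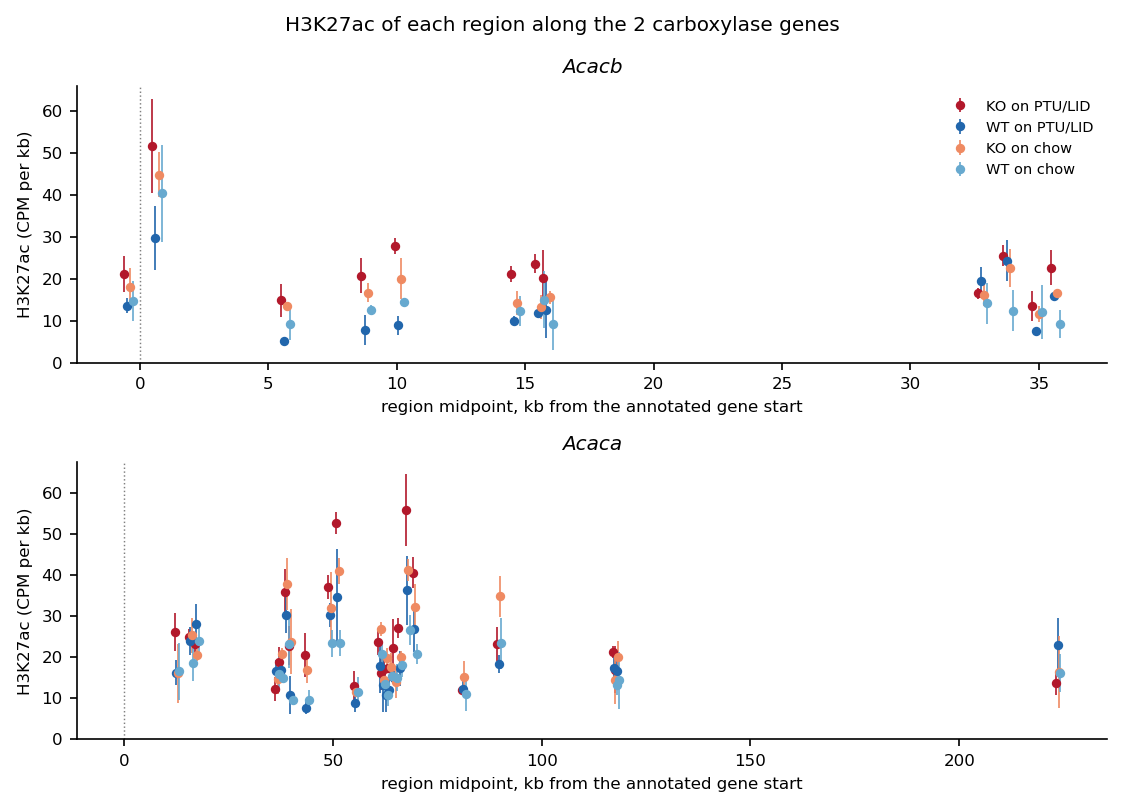
H3K27ac per kb (CPM per kb, mean and SD, n = 3) of each region of Acacb (12 regions) and Acaca (24 regions) against distance from the annotated start in kb, with the 4 groups offset sideways for legibility. At Acacb the KO PTU/LID and WT PTU/LID points lie apart from the start to 15 kb, with the largest fold change at the region 10.1 kb inside.

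Fasn, transcribed from the minus strand of chromosome 11, had 1 called region of 5, and it was the one across the annotated gene start (chr11:120824655-120825607), which holds 143 bases of the promoter window printed above. The region next to it, chr11:120824340-120824653, holds another 156 and was not called. The called region across the start had 42.7, 42.4 and 42.7 CPM in KO PTU/LID livers, against 12.5, 22.8 and 27.9 CPM in WT PTU/LID livers. That is a 1.99-fold difference, with a log2 fold change of 0.99 ± 0.21 (edgeR, adjusted p = 0.00341) that was kept without any 1 of the 6 PTU/LID libraries. On chow the region had 31.0, 24.4 and 30.9 CPM in KO livers, against 13.0, 14.1 and 21.0 CPM in WT livers (0.81 ± 0.22; edgeR, adjusted p = 0.0387), a call kept in 2 of the 6 fits that left out a chow library. Averaged over genotypes it was also higher on PTU/LID, by 0.48 ± 0.15. The stronger region 1.78 kb inside the gene (chr11:120822675-120824095), with 48.6% of the counts of Fasn, had 60.1, 54.5 and 53.1 CPM in KO PTU/LID livers and 34.1, 59.0 and 56.0 CPM in WT PTU/LID livers, and was called in no comparison (0.16 ± 0.18 on PTU/LID).

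At Acss2, which makes acetyl-CoA from acetate, both called regions lay at the start. Across it, chr2:155518013-155520266 had 60.9, 64.0 and 80.2 CPM in KO PTU/LID livers, against 35.3, 43.1 and 39.0 CPM in WT PTU/LID livers (0.81 ± 0.17; edgeR, adjusted p = 0.00406). Just upstream, chr2:155517028-155517696 had 20.5, 18.1 and 21.4 CPM in KO PTU/LID livers, against 7.17, 13.4 and 10.3 CPM in WT PTU/LID livers (0.94 ± 0.24; edgeR, adjusted p = 0.0173). The strongest region of the gene, 22.1 kb inside at chr2:155538894-155541368, had 36.8, 60.0 and 46.5 CPM in KO PTU/LID livers and 52.0, 56.6 and 43.3 CPM in WT PTU/LID livers. Its groups overlapped, and its log2 fold change was -0.07 (interval -0.44 to 0.30). With 41.0% of the gene's counts against 37.5% at the start, it brings down the change summed over Acss2. Counting regions within 2.5 kb of a gene end alone, Acss2 had a log2 fold change of 0.90 (edgeR, adjusted p = 0.000215).

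Acly kept 52.6% of its counts in 1 region just before its start, chr11:100528126-100529809. This region had 80.8, 94.4 and 118 CPM in KO PTU/LID livers, 48.4, 70.8 and 72.1 CPM in WT PTU/LID livers, 54.8, 66.2 and 62.4 CPM in KO chow livers, and 40.2, 33.1 and 59.8 CPM in WT chow livers. KO PTU/LID livers stood above the other 3 groups, and the diet effect in KO was 0.68 ± 0.19 (edgeR, adjusted p = 0.0204), kept in 2 of the 6 fits that left out a KO library. The genotype effect on PTU/LID was 0.61 ± 0.19 and just missed the threshold (edgeR, adjusted p = 0.0575). With the higher or lower mitochondrial set as a term in the fit, the diet effect of the region in KO was 0.30 (edgeR, adjusted p = 0.318). All 3 KO chow libraries had the higher share and 2 of 3 KO PTU/LID libraries the lower. The gene-level diet effect of Acly in KO was 0.38 under that fit and was still called. For regions inside the gene alone, the genotype effect of Acly on PTU/LID was 0.07 (edgeR, adjusted p = 0.886). It was called when the 2 regions before the start, with 52.6% and 13.9% of the gene's counts, were counted too.

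Slc25a1 had 76.1% of its counts in the region across its start (chr16:17927485-17929160). That region had 53.4, 50.8 and 47.7 CPM in KO PTU/LID livers, 37.6, 49.1 and 46.4 CPM in WT PTU/LID livers, 40.5, 46.3 and 43.7 CPM in KO chow livers, and 43.1, 42.0 and 40.0 CPM in WT chow livers. KO and WT values overlapped on each diet, and the genotype intervals were -0.14 to 0.51 on PTU/LID and -0.27 to 0.40 on chow. The printed window of Slc25a1 lies wholly in an acetylated region whose level passed no test.

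The members were also compared with every other gene by the Pearson correlation of gene-level log2 CPM over the 12 libraries, which share depth, genotype and diet, leaving out genes within 100 kb. The closest to Fasn were Srebf1 (r = 0.953), which encodes the SREBP1 factors, and Tmem144 (0.938). Acaca was closest to Sin3a (0.954), a corepressor scaffold, and Hook3 (0.953). For Acacb these were Suds3 (0.977), a subunit of the Sin3 complex on the same chromosome, and Zfp385b (0.963), for Acly Dydc1 (0.962) and Slc17a1 (0.956), and for Acss2 Fpgs (0.944) and Adam11 (0.942). For Slc25a1 the closest was Smtnl1 (0.924), the lowest top value among the 6 genes. Among the members, Fasn and Acaca were most alike (0.906), while Slc25a1 had between 0.225 with Acss2 and 0.647 with Acly.

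Among the genes around the route, all calls between genotypes on a single diet were higher in KO. Of 52 other genes of lipid synthesis and its control, 51 were tested, and on PTU/LID 12 were higher in KO and 0 lower, with a median log2 fold change of 0.19 over the 51, beside 6.28% of all genes called and an all-gene median of -0.03. The largest were Scd1, the stearoyl-CoA desaturase (1.62 ± 0.11), Pnpla3, a lipid droplet acyl-hydrolase (1.60 ± 0.28), Thrsp, the thyroid hormone responsive Spot 14 protein (0.91 ± 0.14), Me1, the malic enzyme that yields NADPH (0.86 ± 0.15), and the elongase Elovl5 (0.82 ± 0.11). Mlxipl, which encodes ChREBP (0.70 ± 0.11), Cs, citrate synthase (0.57 ± 0.11), Srebf1 (0.54 ± 0.13), the acyltransferase Agpat2 (0.46 ± 0.14) and Scap, the SREBP escort (0.43 ± 0.12), followed. On chow 7 were higher in KO and 0 lower, beside 3.97% of all genes called in either direction: Scd1 (0.98 ± 0.11), Mlxipl (0.65 ± 0.11), Srebf1 (0.63 ± 0.13), Mid1ip1, a partner of acetyl-CoA carboxylase (0.54 ± 0.13), Agpat2 (0.53 ± 0.14), Usf2 (0.49 ± 0.11) and the pyruvate carrier subunit Mpc1 (0.41 ± 0.11). In both comparisons 4 were called: Agpat2, Mlxipl, Scd1 and Srebf1.

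**Figure D5:**
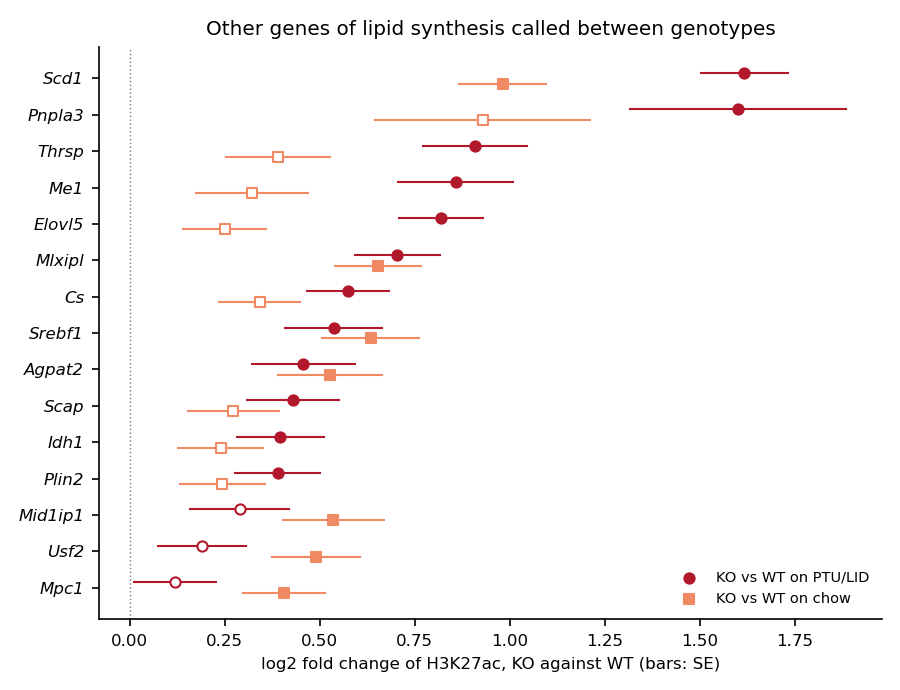
Log2 fold change of gene-level H3K27ac, KO against WT, for the 15 other lipid synthesis genes called on either diet, with SE bars, circles for PTU/LID and squares for chow, filled where called. Scd1 has 1.62 on PTU/LID and 0.98 on chow, and all 30 points lie above 0. The genes were picked by these same calls in either direction, so the filled points lie away from 0 by selection. All of these calls were higher in KO. Over all 51 genes tested the log2 fold change went down to -0.43 on PTU/LID and -0.44 on chow.

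By step, 3 of 8 genes of triglyceride assembly, 2 of 7 of desaturation and elongation, 2 of 8 of NADPH and pyruvate supply, 3 of 15 transcriptional regulators, 1 of 8 regulators of acetyl-CoA carboxylase and 1 of 5 mitochondrial counterparts were higher in KO on PTU/LID. In that comparison 6.28% of all genes were called in either direction. For the diet, 4 of the 51 were called in KO liver (7.44% of all genes) and 5 in WT liver (7.70%), close to those shares. In KO liver Scd1 (0.77 ± 0.11) and Brca1, whose protein binds phosphorylated carboxylase (0.70 ± 0.13), were higher on PTU/LID, and Scap (-0.52 ± 0.12) and Fads2 (-0.42 ± 0.11) were lower. In WT liver Brca1 (0.66 ± 0.13) and Pklr, pyruvate kinase (0.62 ± 0.14), were higher, and Scap (-0.68 ± 0.12), Me1 (-0.62 ± 0.15) and Elovl5 (-0.46 ± 0.11) were lower. The interaction called 0 of the 51. Averaged over diets, 19 were higher in KO and 3 lower, beside 11.6% of all genes called, the 3 being Nr1h2 (-0.36 ± 0.10) and Nr1h3 (-0.35 ± 0.09), which encode the liver X receptors, and Mecr, of mitochondrial fatty acid synthesis (-0.42 ± 0.13). Averaged over genotypes, the diet raised 3 of the 51 (Brca1, Scd1 and Pklr) and lowered 4 (Scap, Mecr, Me1 and Fads2), beside 16.0% of all genes called.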

How the data were processed

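H3K27ac ChIP-seq libraries of whole liver (12, 3 per group) were analysed; 4 input libraries were not analysed here. Per the submitters' processing notes, which give no order of steps, reads were handled with Bowtie2 2.2.1 against mm10, and MACS2 2.1.1, bedtools 2.26.0, Picard 2.8.1 and bcl2fastq 2.17.1.14 were also used. Aligner settings, peak thresholds and counting options appear in no source used here. The authors deposited 1 table of raw counts per region, holding 52645 regions of 200 to 9857 bp as whole numbers with no normalization.

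Regions were assigned to RefSeq genes (GRCm38.p6) by midpoint, and counts were summed per gene. All regions and all genes were fitted over the 12 libraries with edgeR 4.0.16 (R 4.3.3; filterByExpr with a minimum count of 10, TMM, robust quasi-likelihood test, Benjamini-Hochberg adjustment over all features), which was tested on simulated data. For a simulated diet effect in KO, 32% of genes and 2% of regions with a 1.5-fold change were called. At a 2-fold change 86% of genes and 56% of regions were called, so a gene or region not called may still differ. Errors of fold changes are SE and intervals 95%. The fit pools the spread of all 4 groups, and the genotype and diet comparisons share libraries. A count gives precision for counting error only; the members had 179 to 4344 counts per gene and library. Of the genes' regions, the strongest and those called in any of the 7 comparisons were named; of other lipid genes, at most the 10 largest per comparison. The members and gene lists were chosen with earlier results of these data known. Alternatives were DESeq2 1.42.0 and its size factors, cyclic loess (limma 3.58.1), no filter, mitochondrial share (its regions left out, as a term of 2 levels, or libraries above or below 2%), other assignment rules, other totals, the compared groups alone, and each library left out. No pair of libraries of a group agreed within sampling noise. Of the genes closest in pattern to the members, 1 is not reported here.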

Additional observations from a re-analysis of the deposited data

Results flagged for a closer look

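The Acacb region at chr5:114155408-114157466 had PTU/LID values on opposite sides of the chow values in the 2 genotypes: the 3 KO PTU/LID values (53.4, 61.6 and 57.0 CPM) all lay above the 3 KO chow values (30.3, 50.4 and 43.1 CPM), and the 3 WT PTU/LID values (13.4, 23.3 and 18.1 CPM) all lay below the 3 WT chow values (30.7, 27.6 and 30.6 CPM). The diet effect in KO minus that in WT was 1.16 on the log2 scale, and the interaction test missed the threshold (edgeR, adjusted p = 0.0524). Within KO the diet effect did not pass (0.48; edgeR, adjusted p = 0.121), and within WT the call (-0.68; edgeR, adjusted p = 0.0495) was kept in 1 of the 6 fits that left out a WT library. Over the alternatives tried the difference was between 0.98 and 1.49, with an adjusted p between 0.0166 and 0.207, and 6 of 19 alternatives called it.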

How the results depend on the processing

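Genes called among the 6 moved as follows. Counts as reported above are in brackets, and the mitochondrial term splits the libraries at 2% of counts. For KO against WT on PTU/LID (5), 2 were called under cyclic loess, 3 in the libraries of higher mitochondrial share (1 KO, 1 WT, whose spread is taken from the other groups), 1 with those groups alone, 3 with regions inside genes alone and 2 with totals and TMM factors of all regions. On chow (2), 0 were called under cyclic loess, 5 with a mitochondrial term, 4 in the libraries of higher mitochondrial share and 1 with regions within 2.5 kb of a gene end. For the diet in KO (1), 0 were called in the libraries of higher mitochondrial share, 2 within 2.5 kb and 0 inside genes. For the diet averaged over genotypes (2), 1 was called under DESeq2 size factors, no filter, cyclic loess, the mitochondrial term, regions within 2.5 kb, inside genes or within 10 kb, and totals of all regions, and 0 in the libraries of higher mitochondrial share. Leaving out 1 library gave 2 to 5 on PTU/LID, 0 to 1 on chow, 1 to 2 for the diet in KO, 0 to 2 for the diet in WT, 1 to 2 for the diet averaged, and 5 to 5 for the genotype averaged. Over all alternatives for the genotype averaged, Acly and Acss2 were each called in 22 of 23. The lowest log2 fold change among them was 0.06 for Acly and 0.26 for Acss2.

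Of the 60 regions, 3 were called for KO against WT on PTU/LID (12) in the libraries of higher mitochondrial share, and on chow (6) 3 under cyclic loess and 13 with the mitochondrial term. For the diet in KO (1) there were 0 with that term and 4 with those groups alone. For the diet in WT (2) there was 1 under DESeq2 size factors, DESeq2's Wald test, mitochondrial regions left out, or those groups alone, and 0 in the libraries of higher mitochondrial share. The interaction (0) had 1 under DESeq2's test, cyclic loess and the mitochondrial term. For the diet averaged (6) there were 2 with that term and 0 in the libraries of higher mitochondrial share. Leaving out 1 library gave 6 to 13 on PTU/LID, 0 to 3 on chow, 0 to 3 for the diet in KO, 0 to 4 in WT, 0 to 1 for the interaction, 1 to 11 for the diet averaged and 13 to 18 for the genotype averaged.

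Signs turned for these differences, none past the threshold in either fit. The log2 fold change of Acss2, PTU/LID vs chow in WT (0.00), was -0.0083 with DESeq2 size factors, -0.0089 with its test, -0.021 with no filter, -0.059 with cyclic loess, -0.061 with the mitochondrial term, -0.17 in the libraries of lower mitochondrial share, -0.0042 with those groups alone, -0.0094 within 10 kb, and between -0.13 and 0.078 with 1 library left out. In KO it was -0.018 with the mitochondrial term and -0.090 in the libraries of higher share. In those libraries the diet effect in WT was -0.32 for Fasn, -0.045 for Acaca and -0.059 for Slc25a1. Slc25a1 on chow (-0.02) was between -0.061 and 0.0084 with 1 library left out, and 0.052 within 2.5 kb. The causes of these moves were not tested. No paired analysis was possible because no library number is shared between groups. Slc25a1 has no region inside the gene and Acaca none within 2.5 kb, so those values could not be given.

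Over all genes, the mitochondrial term raised the count of calls on chow to 1541 (454) and leaving out 1 library gave 110 to 253. For KO against WT on PTU/LID (719), cyclic loess gave 590, those groups alone 369, and leaving out 1 library 363 to 1008.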
